A study of Mus musculus with 2 samples.

Results

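Endothelial identity genes were examined in GFP+CD4+ cells sorted from Foxp3-DTR-GFP (FDG) mice, in which the endogenous Foxp3 locus drives GFP so that regulatory T cells (Tregs) can be sorted. The members are the rows of 10 symbols among the 24346 listed in each library, Pecam1, Cdh5, Cldn5, Kdr, Tek, Eng, Ramp2, Plvap, Emcn and Vwf, taken by name as genes that identify endothelial cells. One library came from spleen (spleen Tregs) and the other from lung (lung Tregs), both on day 15 after bleomycin (BLM, 50 μg into the trachea), and each pooled the cells of 3 mice, so both groups shared genotype, treatment and time and differed in the tissue. The mice were 10 to 16 weeks old, no untreated library is compared here. Because there was 1 library per tissue, replicates were lacking and no difference was tested.

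Endothelial cells line blood and lymph vessels. They hold together through VE-cadherin and claudin-5, are kept alive and shaped by the VEGF, angiopoietin and BMP receptors that they carry, and regulate leakage and clotting through surface and stored proteins such as PLVAP and von Willebrand factor. In the lung they form the dense capillary bed around the alveoli, and in the spleen they line the sinuses of the red pulp. A sort for GFP and CD4 selects T cells and not vessel cells. Pecam1 is not restricted to endothelium, since its product CD31 also sits on platelets, myeloid cells and part of the T cells.

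The promoters of 3 members are shown because the genes stood at different points of the comparison: Cldn5 was far higher in lung Tregs, Eng moderately higher, and Emcn was listed at 0 in both libraries. RefSeq sequence was at hand for 5 of the 10 members (Cldn5, Eng, Emcn, Kdr and Tek), with GRCm38.p6 coordinates. Each line gives the 250 bases before the transcript start that RefSeq sets, 5′ to 3′ on the gene's strand, which is the plus strand for all 3 genes. Capitals mark GGAA, the core that transcription factors of the ETS family bind, or its reverse complement TTCC. The windows are chr16:18776597-18776846 for Cldn5, chr2:32646345-32646594 for Eng and chr3:137340828-137341077 for Emcn, of which the last 11 bases lie in an exon of the GENCODE annotation used for gene positions.
Cldn5: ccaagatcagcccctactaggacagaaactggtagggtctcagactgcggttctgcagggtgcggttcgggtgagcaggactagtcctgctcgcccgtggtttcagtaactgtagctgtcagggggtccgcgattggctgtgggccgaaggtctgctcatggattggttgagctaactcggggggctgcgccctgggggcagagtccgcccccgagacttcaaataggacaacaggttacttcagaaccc
Eng: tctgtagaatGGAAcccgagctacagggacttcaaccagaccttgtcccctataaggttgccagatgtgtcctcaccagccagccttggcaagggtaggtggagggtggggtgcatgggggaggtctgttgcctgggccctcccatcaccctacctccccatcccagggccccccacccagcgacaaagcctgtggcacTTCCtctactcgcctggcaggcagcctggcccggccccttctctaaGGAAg
Emcn: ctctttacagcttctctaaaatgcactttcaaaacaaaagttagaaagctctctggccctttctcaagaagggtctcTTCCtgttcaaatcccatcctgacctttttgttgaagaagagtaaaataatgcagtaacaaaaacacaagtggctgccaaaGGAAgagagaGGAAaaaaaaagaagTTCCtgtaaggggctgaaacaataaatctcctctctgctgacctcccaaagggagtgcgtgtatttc
The Cldn5 window held 0 such cores, the Eng window 3 and the Emcn window 4. At least 1 core on either strand was found in 93.45% of 32851 promoters of the same length, with a median of 3 and quartiles of 2 and 4, so Eng and Emcn held common numbers and Cldn5 was in the minority without one. A match is a run of letters and not a shown binding site.

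The libraries hold FPKM, the fragments of a gene per kilobase of exon, scaled by the size of the library, which makes levels comparable between genes of different length. Reads behind a value were estimated from the FPKM and the transcript length, and summed to about 9864210 in spleen and 12882900 in lung. Intervals below are 95% intervals drawn from these reads. They cover counting error only, not variation between mice or copies made by PCR. For ratios that the text calls floored, values under 0.1 FPKM were set to 0.1. The sort itself could be read from Foxp3 (18.7 FPKM in spleen and 41.8 in lung), Cd4 (195 and 179) and Cd3e (513 and 369). The summed level of 11 T cell genes was 4595 FPKM in spleen Tregs and 4467 in lung Tregs. That of 11 macrophage genes was 778 FPKM in spleen Tregs and 27551 in lung Tregs, where Lyz2 ranked 1 among all symbols. The summed level of 7 B cell genes was 260 FPKM in spleen Tregs and 135 in lung Tregs. The share of RNA from cells other than T cells was not tested.

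As endothelial markers the members were nearly silent in the spleen library apart from Pecam1, and present in part in the lung library. In spleen, 1 of 10 members reached 1 FPKM, 3 were listed at 0, and the 9 members other than Pecam1 summed to 2.0 FPKM. In lung, 6 members reached 1 FPKM (Pecam1, Ramp2, Plvap, Cldn5, Eng and Vwf) and 2 were listed at 0 (Kdr and Emcn). The same 9 members summed to 44.3 FPKM there, 22.1-fold more. Of all 24346 symbols, 9542 were listed at 0 in spleen and 10638 in lung, so a value of 0 was common. With Pecam1 included the sums were 56.8 and 75.9 FPKM. As a set of endothelial markers they were incomplete in the lung library, since the genes of VEGF receptor 2 and endomucin were not detected there. In a bulk library a smaller number of cells and less RNA per cell cannot be told apart.

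**Figure D1:**
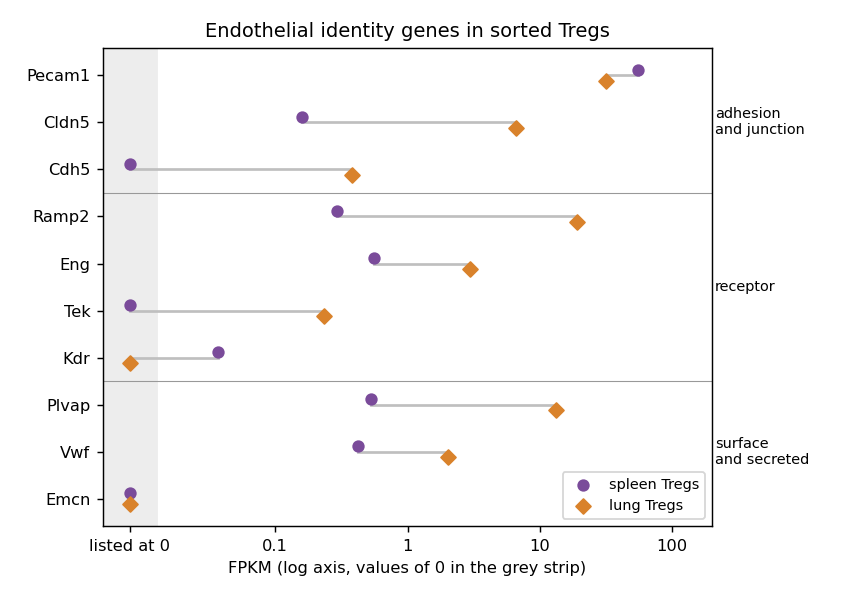
FPKM of the 10 members (log axis) in spleen Tregs (circles) and lung Tregs (diamonds), 1 library each, grouped by role, with values of 0 in the grey strip. Ramp2, Plvap and Cldn5 lie below 1 FPKM in spleen and between 6.54 and 18.9 in lung, Pecam1 is the only member that is high in both, and Emcn is at 0 in both.

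Among the adhesion and junction genes, the values split. Pecam1 (chromosome 11, 106654217 to 106750628, minus strand, GRCm38 as for all positions here) was at 54.8 FPKM in spleen (interval 52.2 to 57.4) and 31.7 in lung (29.8 to 33.5), about 1732 and 1136 reads, and so 1.73-fold lower in lung (1.61 to 1.87). It ranked 1892 among all symbols in spleen and 3223 in lung, and the next member was Ramp2 at rank 4575 in lung. Cldn5, the gene of claudin-5, the main claudin of endothelial tight junctions, is a single exon on chromosome 16 (18776847 to 18778262, plus strand). Its value was 0.160 FPKM in spleen, on about 2 reads, and 6.54 in lung, on about 93. The ratio was 41.0, with a wide interval of 11 to 343 that reflects the few splenic reads. Cdh5, which encodes VE-cadherin and is among the most restricted endothelial genes (chromosome 8, 104101625 to 104144511, plus strand, 12 exons), was listed at 0 in spleen and at 0.382 FPKM in lung. The lung value rested on about 17 reads over a transcript of 3995 nt, and since a count of 0 allows up to 0.0764 FPKM in spleen, Cdh5 was at least 5.0-fold higher in lung. VE-cadherin RNA was thus detected in the lung library only, and far below the level of Cldn5 there. Which cells of the sort it came from was not tested.

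The receptors differed as strongly among themselves. Ramp2, the accessory protein that turns the receptor Calcrl into a receptor for adrenomedullin (chromosome 11, 101246028 to 101259546, plus strand), had 0.291 FPKM in spleen and 18.9 in lung, about 2.92 and 216 reads. This was the highest ratio of the members, 65.2 (21.4 to 309.9), and the only one whose interval lay wholly above 20. Eng, endoglin, a co-receptor for ligands of the TGF-β family (chromosome 2, 32646595 to 32682669, plus strand), had 0.559 FPKM in spleen and 2.98 in lung, a ratio of 5.33 (3.17 to 8.95). Of its 3572 exon bases, 61 overlap Fpgs on the opposite strand, and the library method as described does not mark strand, so reads there cannot be told apart. Fpgs had 10.6 FPKM in spleen and 3.27 in lung, and its part in the Eng values was not tested. Tek, the angiopoietin receptor Tie2 (chromosome 4, 94739289 to 94874976, plus strand), was listed at 0 in spleen and at 0.235 FPKM in lung on about 12 reads, at least 3.52-fold higher. Kdr, VEGF receptor 2, the main receptor through which VEGF acts on endothelial cells (chromosome 5, 75932827 to 75978458, minus strand), was at 0.0368 FPKM in spleen, about 2.18 reads, and listed at 0 in lung. With so few reads no fold can be given. A count of 0 allows up to 0.0446 FPKM in lung, which is below the lung values of Cdh5 (0.382 FPKM) and Tek (0.235). Kdr was thus lower in the lung library than either of these.

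Surface and stored proteins were again unequal. Plvap, which forms the diaphragms of endothelial fenestrae and caveolae (chromosome 8, 71497765 to 71511752, minus strand), had 0.534 FPKM in spleen and 13.2 in lung, about 9.84 and 275 reads, a ratio of 24.7 (13 to 51.1). Vwf, von Willebrand factor, the clotting protein that endothelial cells store in Weibel-Palade bodies and platelets in their granules (chromosome 6, 125546774 to 125686679, plus strand, 52 exons), had 0.425 FPKM in spleen and 2.03 in lung. Its transcript of 8834 nt gave many reads at a low level, about 38 and 206, and a ratio of 4.77 (3.37 to 6.94). Emcn, endomucin, a sialomucin of capillary and venous endothelium (chromosome 3, 137341067 to 137432185, plus strand), was listed at 0 in both libraries, which allows up to 0.164 FPKM in spleen and 0.144 in lung.

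In lung the order of levels per length was Pecam1, Ramp2, Plvap, Cldn5, Eng, Vwf, Cdh5 and Tek, with Kdr and Emcn at 0. The counting intervals of neighbours did not overlap from Pecam1 down to Vwf and between Vwf and Cdh5, while those of Cdh5 (0.222 to 0.611 FPKM) and Tek (0.121 to 0.410) did. In spleen the order below Pecam1 was Eng, Plvap, Vwf, Ramp2, Cldn5 and Kdr. The intervals of Eng, Plvap, Vwf, Ramp2 and Cldn5 all overlapped there, so the order of these 5 cannot be told from counting error.

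The study's threshold for lung Tregs, a fold over 20, was applied here to floored ratios. By it 3 of 10 members were called higher (Ramp2, Cldn5 and Plvap), against 1.62% of all symbols. Among symbols that reached 1 FPKM in either library 3.27% passed, and 3 of the 6 such members. Of those with a mean of 1 to 10 FPKM over both libraries, a range chosen after the values were seen, 6.04% passed, and 3 of the 5 members. Apart from Pecam1, the members that met these limits on level did so through their lung values, so both counts are descriptions and no support. In the other direction 0 of 10 members were over 20-fold lower, against 1.17% of all symbols. Over 2-fold, 7 members were higher, against 11% of symbols, and 0 were lower, against 11.7%. The exceptions were Pecam1, which was lower by less than 2-fold, and Kdr and Emcn, which were under 0.1 FPKM in both libraries. The median floored log2 ratio was 2.1 for the 10 members and 0 for all symbols. Of the members over the threshold Plvap was the lowest at 24.7, and the highest below it was Eng at 5.33. A rescaling of each library to the same FPKM total (TPM) shifted the median log2 ratio of genes at 1 FPKM or more in both by -0.43, took Plvap below 20-fold, and turned the split of all symbols over 20-fold from 395 higher and 284 lower into 381 higher and 459 lower. Pecam1 was then lower by a log2 ratio of -1.22.

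**Figure D2:**
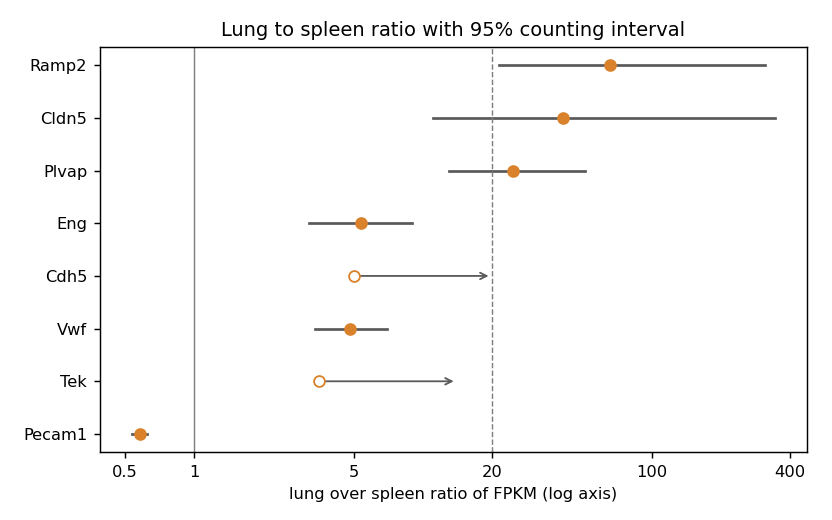
Ratio of lung to spleen FPKM (log axis) for the 8 members with a value above the limit of detection. Filled points are ratios as listed with 95% exact binomial counting intervals, open points with arrows are the least ratios that a splenic count of 0 allows (arrow length has no meaning), the solid line marks 1 and the dashed line 20. Pecam1 alone lies below 1, and Ramp2 alone has an interval wholly above 20.

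The partners of the receptors were read from lists of the same pathways. In the VEGF family, the co-receptor Nrp1, which is also a Treg gene, was high in both libraries (50.2 FPKM in spleen and 59.7 in lung). Nrp2 (0.308 and 4.13 FPKM), Flt1 of VEGF receptor 1 (0.0635 and 0.937) and Flt4 of VEGF receptor 3, which marks lymphatic endothelium (0 and 1.39), were each higher in lung, Flt4 at least 29-fold. Kdr was the only one of the receptors and co-receptors in this family that was not detected in lung. Among the ligands Vegfa was higher in lung (0.186 and 2.77 FPKM), Vegfb lower (5.75 and 2.1) and Figf, which encodes VEGF-D, was at 0 in both. By floored ratios 0 of these 9 genes were over 20-fold higher or lower, against 1.62% and 1.17% of all symbols. Of the 9, 6 were over 2-fold higher, against 11% of symbols, and Flt4 was at 13.9 when floored.

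Beside Tek, its sister receptor Tie1 was listed at 0 in both libraries. The ligand Angpt2, which endothelial cells themselves store and release, had 0.0288 FPKM in spleen and 2.1 in lung, about 1 read and 83 reads, a ratio of 73.1 with an interval of 12.8 to 2922 and 21 when floored, the only one of 4 Tie partners over the threshold. Angpt1, the highest of them in spleen, had 0.0940 FPKM there and 0 in lung. The partners of endoglin, the receptors Acvrl1 (2.39 and 10.2 FPKM) and Bmpr2 (0.479 and 1.48), were higher in lung like Eng. Tgfbr2, a receptor of T cells as well, was nearly the same (57.5 and 56.9). Of the BMP target genes Id1 was higher (2.26 and 12.4) and Id3 lower (152 and 66.6), and the ligands Gdf2 and Bmp10 were at 0 in both libraries.

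Ramp2 did not stand alone in its family. Ramp1, which pairs with Calcrl to form the CGRP receptor, had 32.9 FPKM in spleen and 76.0 in lung, a ratio of 2.31 (1.97 to 2.71). Ramp3, which makes another adrenomedullin receptor, was at 4.67 and 35.5 FPKM, a ratio of 7.60 (5.62 to 10.3). Calcrl itself, the receptor that these proteins accompany, had 5.62 FPKM in spleen and 4.93 in lung, and the interval of its ratio, 0.736 to 1.04, held 1. The ligand gene Adm was at 0.493 and 7.39 FPKM, and the scavenger receptor Ackr3 at 0.475 and 4.42. The accessory proteins and the ligand were thus higher in lung while the receptor was not.

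**Figure D3:**
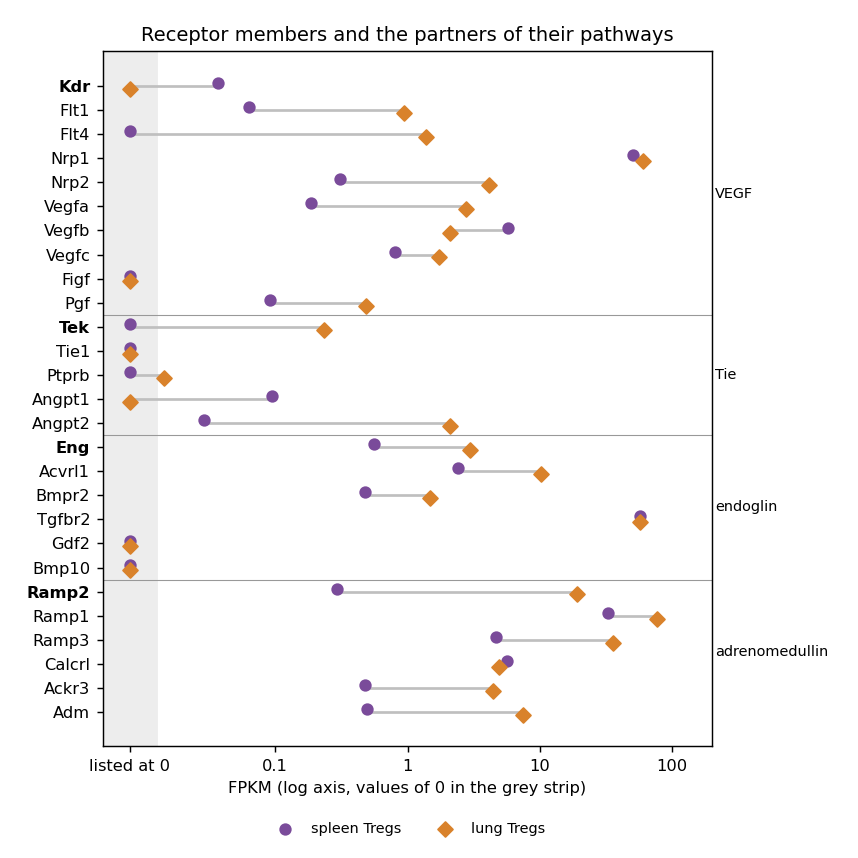
FPKM (log axis) of the receptor members (bold) and the genes of their pathways in spleen Tregs (circles) and lung Tregs (diamonds), 1 library each, with values of 0 in the grey strip. Kdr, Figf, Tie1, Angpt1, Gdf2 and Bmp10 are at 0 in lung, while Ramp1, Ramp2 and Ramp3 are all higher in lung and Calcrl is not.

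Further endothelial genes were uneven too. Of 20 other endothelial genes, 3 were over 20-fold higher in lung: Ecscr, an endothelial surface protein (0 and 13.7 FPKM, at least 43-fold), Egfl7, a factor secreted by endothelial cells (0.101 and 8.04, a ratio of 79.7 with an interval of 16.9 to 3826), and Cd34, which fibroblasts and progenitors also carry (0.0427 and 3.10). Robo4, at 0 and 1.99 FPKM, had a floored ratio of 19.9 and was at least 26.7-fold higher by reads. Tie1, Clec14a and Cyyr1 of the same list were at 0 in both libraries. The highest of the list was Icam2, which lymphocytes express too, at 80.9 FPKM in spleen and 55.0 in lung. The median floored log2 ratio of the list was 1.62. Among 13 transcription factors of endothelial cells the ETS factors Ets1 (404 and 242 FPKM) and Fli1 (35.5 and 28.1), both also active in T cells, were abundant in both tissues and lower in lung. Erg, the ETS factor most restricted to endothelium, had 0.0332 FPKM in spleen, on about 0.68 reads, and was at 0 in lung. A count of 0 allows 0.146 FPKM in spleen and 0.129 in lung, so no difference in Erg can be read. Sox7, Sox17 and Sox18 were all at 0 in spleen and at 2.17, 1.41 and 1.81 FPKM in lung, Sox7 over the threshold with a floored ratio of 21.7, and Tal1 was at 0 in both. Of the 13 transcription factors 8 were listed lower in lung and 4 higher, with a median floored log2 ratio of -0.045.

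Genes of vessel types are given list by list, where 1.62% of all symbols were over 20-fold higher in lung. At that share a count of 0 in a short list sets no vessel type apart. Of 9 genes of lung capillaries 4 were over 20-fold higher in lung with all splenic values at 0: Car4 (81.3 FPKM), Fibin (6.71), Gpihbp1 (5.77) and Tmem100 (5.46). Car4, a carbonic anhydrase that marks one type of alveolar capillary cell and is also made by alveolar macrophages, was at least 294-fold higher, whereas Gpihbp1, on about 29.7 reads, was at least 8.72-fold higher. Apln, another gene of that capillary type, was at 0 in lung and at 0.0984 FPKM in spleen, and Ednrb, the highest of the list in spleen, had 0.149 and 2.24. Of 7 arterial genes 1 passed when floored, Gja4 (0 and 2.87 FPKM, at least 14.7-fold by reads), Hey1 was the highest in spleen (1.69 and 2.0), while the arterial connexin Gja5 was at 0 in both libraries. Of 5 venous genes 0 passed, Ephb4 was the highest in lung (0 and 1.40 FPKM), Selp the highest in spleen (1.02 and 0.473), and the venous regulator Nr2f2 was at 0 in both. Of 6 lymphatic genes 3 passed, Pdpn (0 and 11.7 FPKM), Lyve1 (0 and 4.75) and Mmrn1 (0.261 and 5.49). The lymphatic regulator Prox1 had 0.295 FPKM in spleen and 0 in lung. Which cells gave the values of the 3 was not tested. Among 4 genes of splenic sinus endothelium, Stab2 was at 0.962 FPKM in spleen on about 80 reads and at 0 in lung, at least 30.3-fold lower by reads and 9.62-fold when floored, and Madcam1 was at 0.159 and 0. Stab1 and Lyve1, which macrophages also express, were higher in lung. Without double counting, the members, the 20 other endothelial genes and the lists of vessel types held 60 genes. By floored ratios 14 of these were over 20-fold higher in lung, against 1.62% of all symbols. Over 20-fold lower were 0, against 1.17%, and 6 were at 0 in both libraries. The bounds of Robo4, Flt4 and Stab2 from a count of 0 passed 20-fold although their floored ratios did not.

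Genes of junctions and of storage granules are shared with other cells. Of 11 junction genes, F11r, which epithelial cells and leukocytes also express, was over 20-fold higher in lung (1.10 and 36.4 FPKM), and the endothelial genes Jam2 (0.0628 and 1.55) and Esam (1.17 and 4.49) were higher as well. Jam3, on about 5 reads in spleen (0.274 and 0), and Ocln (0.0970 and 0) were not detected in lung. Ctnnb1, β-catenin, to which cadherins attach, was the highest in both libraries (42.8 and 71.6). Of 6 genes tied to von Willebrand factor and its granules, Cd63, a membrane protein of many secretory granules and lysosomes, was over 20-fold higher in lung (10.2 and 538.6 FPKM). Rab27a was the highest of these in spleen (12.5 and 7.42), and F8, the clotting factor that von Willebrand factor carries, was at 0.191 and 1.44 FPKM.

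Markers of other cells also differed between the libraries, some lists in the direction of most members and others not, and their part in the members' values was not tested. Platelets share Pecam1 and Vwf with endothelium. Of 12 platelet and megakaryocyte genes 9 were at 0 in lung, while all 12 were above 0 in spleen, and the list had a median floored log2 ratio of -2.67. Ppbp (7.85 FPKM in spleen), Gp9 (3.36) and Itga2b (2.21), all at 0 in lung, were over 20-fold lower there when floored, and at least 27-fold, 8.87-fold and 28-fold lower by reads. Pf4, which macrophages can also express, was higher in lung (10.2 and 65.5 FPKM). Itgb3, which other cells share, had 6.08 and 8.17 FPKM, and Clec1b 5.31 and 3.36. Pericyte and smooth muscle genes, which mark the cells around vessels, were mostly low. Of 11 genes 0 were over 20-fold higher or lower, against 1.62% and 1.17% of all symbols. Pdgfrb, Cspg4, Rgs5 and Cnn1 were at 0 in both libraries. Kcnj8 was the highest in lung (0.146 and 2.62 FPKM) and Tagln in spleen (2.17 and 2.28).

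Markers of other lung cells also differed. All 8 fibroblast genes were listed higher in lung, 5 of them over 20-fold (Mgp, Dcn, Col1a2, Col1a1 and Col3a1, with Mgp the highest at 116 FPKM in lung and Dpt the highest in spleen at 0.203), and their sum was 0.492 FPKM in spleen and 165 in lung. Lum, at 0 and 0.137 FPKM, rested on about 3.6 reads, and the interval of its ratio began at 0.581. Of 9 alveolar epithelial genes 4 were over 20-fold higher (Sftpc, Sftpa1, Sftpd and Aqp5), and Hopx, also a T cell gene, was the highest in both (142 and 359 FPKM). The epithelial adhesion gene Epcam went the other way (8.75 and 1.79 FPKM, 4.89-fold lower in lung with an interval of 3.39 to 7.04), and Ager had 2.27 and 1.74. All 11 macrophage genes were listed higher in lung, with Lyz2 (376 and 24947 FPKM) and Chil3 (17.4 and 1161) over 20-fold, and a sum of 778 and 27551 FPKM. The log2 ratios of Csf1r (0.193) and Mrc1 (0.300) were smaller in size than the shift of -0.43 from rescaling to TPM. B cell genes were lower in all 7 cases, with Cd79b the highest in both (90.4 and 59.7 FPKM). The T cell list had a median floored log2 ratio of -0.00296, with Cd2 the highest in spleen (912 FPKM) and Cd3g in lung (1103), and the list of 6 Treg genes, led by Tnfrsf18 (470 and 919 FPKM), a median of 0.48.

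**Figure D4:**
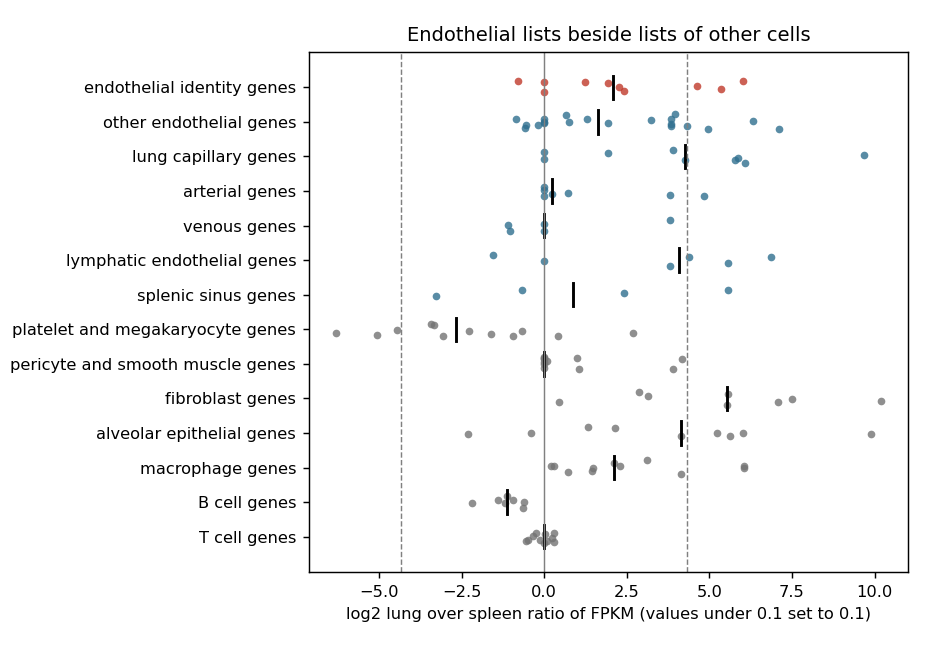
Floored log2 ratio of lung to spleen FPKM for the genes of 14 lists, 1 point per gene, with the median of each list as a black bar and dashed lines at 20-fold. The members (red, with 6 other endothelial lists in blue and other cells in grey) spread from -0.79 to 6.03, the platelet list lies mostly below 0, the fibroblast list above 0 and the T cell list close to 0. The endothelial transcription factors, with a median of -0.045, and the lists of pathway partners, junctions, granules and Treg genes are not drawn.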

How the data were processed

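The data are 2 bulk RNA-seq libraries of sorted Tregs, 1 per tissue, each pooled from 3 mice. SMART-Seq HT cDNA was read from 1 end over 75 bases. Mapping to mm10 was done by the authors with TopHat2 2.1.1, Bowtie2 2.2.8 and SAMtools 0.1.18 and the deposited FPKM came from Cuffdiff 2.2.1. The annotation, the options of Cuffdiff and any scaling between the libraries are not given in the sources used here.

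The ratio of lung to spleen was taken after setting FPKM under 0.1 to 0.1, and genes over 20-fold were counted, the study's fold threshold for lung Tregs, with the floor set here. Reads behind each FPKM were estimated from the median length of the GENCODE M21 (GRCm38) transcripts tied to RefSeq, known for 23671 symbols (97.2%). Effective lengths assumed fragments of 200 ± 80 bases with a shortest of 73. What 1 read is worth was read from the product of FPKM and effective length that recurred most often in long transcripts (1500 nt or more), 0.0964 FPKM at 1 kb in spleen and 0.0849 in lung. Reads of genes with 1 transcript length and 1 to 10 reads fell within 0.1 of a whole number in 72.6% and 74.7% of cases, so they are estimates. A count of 0 was taken to allow 3 reads, ratios were given exact binomial intervals (Clopper-Pearson) at 95% and levels exact Poisson intervals.

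The members and the 21 other gene lists were chosen with earlier results of these data known, so no list is independent evidence. Named from each list were genes over 20-fold, the highest in each library and, where few, those at 0 in both, and the text adds further genes chosen after their values were seen. With 2 libraries a pattern is a single ratio, so no genes were ranked by likeness to the members. The steps were tested on simulated data. Software was Python 3.11.15, with scipy 1.17.1 for intervals, numpy 2.4.6 and pandas 2.3.3 for tables, and matplotlib 3.10.9 for plots.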

Additional observations from a re-analysis of the deposited data

How the results depend on the processing

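The number of members over 20-fold higher in lung was 3, and the floor decided it. It was 5 with a floor of 0.01 FPKM, which added Cdh5 and Tek on splenic values of 0, and 0 with a floor or a pseudocount of 1 FPKM, which exceeds every splenic value but that of Pecam1. It was 1 (Ramp2) at a threshold of 50-fold and 2 after rescaling to TPM, where Plvap dropped out. It stayed at 3 with a pseudocount of 0.1, a median ratio of 1, equal upper quartiles, at least 3 reads in each library, the 3 filters on low values, a threshold of 10-fold and without Pecam1. Some of these settings could not change the count. A floored ratio over 20 already needs more than 1 FPKM in lung, and Pecam1 was not among the 3. The filter on reads kept the 3 through their lung values. No setting gave a member over 20-fold lower. The median log2 ratio of the members, 2.1, was 0.51 with a floor of 1 FPKM and 0.78 with a pseudocount of 1 FPKM, and between 1.90 and 3.52 otherwise. It was 2.29 with at least 3 reads in each library and 2.26 without Pecam1, a setting added after the data were seen. No member that differed changed direction under the 11 other floors, scalings and filters. Among the 29 list genes over 20-fold, 26 higher and 3 lower in lung, 0 changed direction. For these members and genes a reversal was hardly possible, so its absence is no support. Equal floors, pseudocounts and filters keep the direction of a ratio. The largest shift from scaling, -0.43 in log2 for rescaling to TPM, was smaller in size than their ratios. Over all symbols, 395 higher and 284 lower became 867 and 1256 with a floor of 0.01 FPKM, 102 and 51 with a floor of 1 FPKM, 78 and 49 with a pseudocount of 1 FPKM, 381 and 459 after rescaling to TPM, and 196 and 82 among symbols above 0 in both libraries. No paired analysis was possible because there is 1 library per tissue, and for the same reason no library could be left out. Kdr, Cdh5, Tek and Emcn rest on so few reads that depth limits what can be said of them.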
